A study of Mus musculus with 23 samples.

Results

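Heat shock factor 1 and chaperones whose genes it can induce were followed in the colonic epithelium of mice on low-fat or high-fat diets. The genes were taken as every row of the deposited count table whose symbol was Hsf1, Hspa1a, Hspa1b, Hspa8, Hsph1, Dnajb1, Hspb1, Hsp90aa1, Hspe1 or Hspd1. All 10 symbols had a row, among 24917 rows in all, and all 10 passed a filter on low counts that kept 14725 genes over all samples.

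Chaperones bind unfolded or partly folded proteins and keep them from clumping while they fold. Under heat or other protein stress, the transcription factor HSF1 forms trimers, enters or stays in the nucleus and binds repeated short elements before chaperone genes, which then rise steeply. Some chaperones are made at a high level in every cell without stress, while the inducible HSP70 genes have no introns and can be transcribed and exported quickly.

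RNA was measured in colonic epithelium of male C57BL/6 mice (C57BL/6J in the methods), 6 weeks old when the diets began. Epithelium was isolated with 5 mM EDTA, and libraries came from a stranded total RNA kit that depletes ribosomal RNA. The LF group ate a diet with 10% fat for 43 weeks. The HF group ate a diet with 60% fat for 43 weeks. The HFLF group ate the 60% fat diet for 15 weeks and then the 10% fat diet for 28 weeks. Samples were labelled as batch 1, with 4 LF, 3 HF and 4 HFLF samples, and batch 2, with 4 LF, 3 HF and 5 HFLF samples. What set the batches apart was not stated. Each regimen had 5 mice by the methods. Over both batches there are 8 LF samples, 6 HF samples and 9 HFLF samples, so that a mouse may have given a sample to each batch. Each sample was treated as separate, and the p-values measure the spread between these samples.

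Total counts per sample ran from 29189922 to 65320947, and the median was 37475614. The highest total belonged to HF replicate 3 of batch 2. Levels are given as CPM, the counts-per-million value of a gene in each sample, with library sizes adjusted by TMM over all 23 samples.

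Markers of the labelled tissue were abundant. The 11 epithelial markers summed to between 13696 and 25116 CPM per sample, with Krt8 the most abundant, and the 7 goblet cell markers, led by Muc2, summed to between 17854 and 43356 CPM. Markers of other tissues were low. The 6 T cell and leukocyte markers summed to between 13.6 and 29.7 CPM, with Ptprc the most abundant, and the 4 B cell markers with a row, of 5 listed, reached at most 1.21 CPM. Myeloid markers, led by Cd14, lay between 26.2 and 42.4 CPM, and endothelial markers, led by Vwf, between 7.26 and 19.5 CPM. Fibroblast markers, led by Col3a1, ran from 2.90 to 51.9 CPM. The 7 smooth muscle markers had the widest range of these lists, relative to its lowest value, from 0.545 to 50.9 CPM, and their values are given with the results. These are bulk samples, in which fewer cells of a type and less RNA per cell cannot be told apart.

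The genes differed widely in level. To compare genes, CPM was divided by the length of all exons of the gene in kilobases. In LF samples of batch 2, the median was 298 CPM per kilobase for Hspa8, the HSP70 made in all cells. Hspd1, the large subunit of the mitochondrial chaperonin, followed at 80.0 CPM per kilobase. Dnajb1, a J-domain protein that drives the HSP70 cycle, stood at 64.5, and Hsp90aa1, the stress-inducible cytosolic HSP90, at 55.7 CPM per kilobase. Over the 4 samples the range of Dnajb1, 49.6 to 77.0 CPM per kilobase, overlapped those of Hspd1, 76.1 to 82.9, and Hsp90aa1, 49.9 to 69.5. Next came Hspa1b at 49.0, Hspe1 at 41.6 and Hspa1a at 21.6 CPM per kilobase. The range of Hspa1b, 18.4 to 90.1 CPM per kilobase, covered its neighbours on both sides and reached into that of Hspa1a, 6.41 to 43.4. Hsph1 had 7.44 and Hsf1 3.63 CPM per kilobase, with ranges that did not overlap. Hspb1 was lowest at 0.352 CPM per kilobase. LF samples of batch 1 put Hsp90aa1, at 61.1 CPM per kilobase, above Dnajb1, at 46.0, and gave the other genes the same order.

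Counts behind these levels were lowest for Hspb1, at 6 to 37 per sample. Hspa1a had between 98 and 4285 counts per sample, and Hspa1b between 414 and 8413.

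**Figure D1:**
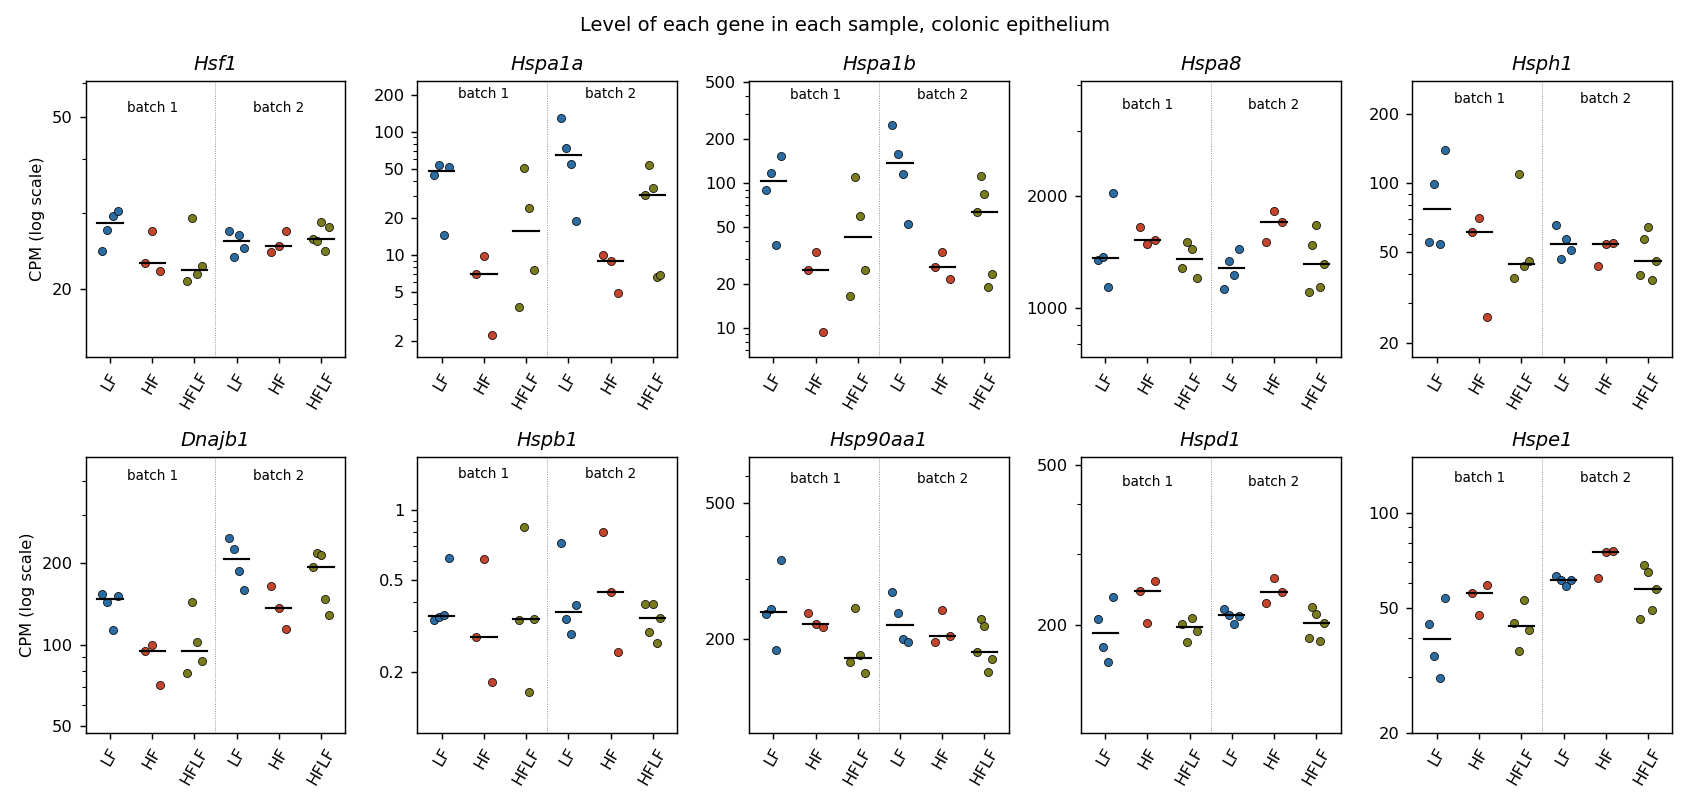
CPM of each gene (log axis) in each of the 23 samples by diet and batch, with each point a sample and each bar the median of its group. The HF points of Hspa1a, from 2.22 to 9.96 CPM, lie below all LF points of their batch.

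The regulator came first. By the deposited table, from which the positions of all 10 genes were taken, Hsf1 lies at chr15:76477445-76500972 on the plus strand of mm10. In batch 1 it had 24.5, 27.4, 29.4 and 30.3 CPM in LF samples, 22.0 to 27.2 in the 3 HF samples, and 20.9, 29.1, 21.6 and 22.6 in HFLF samples. Batch 2 values ran from 23.8 to 28.6 CPM over all 12 samples. Groups overlapped in both batches. Its log2 fold change, HF minus LF, was -0.22 in batch 1 and -0.02 in batch 2, with edgeR adjusted p of 0.331 and 0.878. With 1 sample left out the batch 2 value ran from -0.06 to 0.01.

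Hspa1a and Hspa1b, the heat-inducible HSP70 genes, encode nearly the same protein and lie close together on the minus strand, at chr17:34969359-34972156 and chr17:34956429-34959238. Their transcripts share long stretches. Of all windows of 50 bases, 58.8% of those in the Hspa1a transcript and 62.3% of those in the Hspa1b transcript occur in the other, and of all windows of 100 bases, 47.1% and 49.9%. The methods section does not state how reads that map to several places were counted, nor whether counting used the strand, and its supplement was not available. The split of reads between these genes is therefore uncertain, and their sum is given as well. If shared reads were left out, the levels of both genes, also per kilobase, and their sum would be too low. A gene on the opposite strand, Gm20481, overlaps Hspa1a.

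In batch 1, Hspa1a stood at 44.4, 53.5, 14.4 and 51.5 CPM in LF samples. The HF samples had 7.02, 9.83 and 2.22 CPM. HFLF samples had 3.75, 50.3, 24.0 and 7.58 CPM. Every HF sample lay below every LF sample, and the HFLF samples were spread over both ranges, with replicates 1 and 4 in the HF range and replicates 2 and 3 in the LF range.

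The same gene in batch 2 stood at 129, 73.5, 54.9 and 19.0 CPM in LF samples. HF samples had 9.96, 8.89 and 4.87 CPM. HFLF samples had 30.7, 53.6, 34.8, 6.60 and 6.85 CPM. HF and LF samples again did not overlap. HFLF replicates 4 and 5 fell within the HF range, and replicates 1, 2 and 3 within the LF range.

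Hspa1b split the groups in a similar way. In batch 1 the LF samples had 89.8, 116, 37.1 and 153 CPM, the HF samples 25.1, 33.1 and 9.39, and the HFLF samples 16.6, 109.8, 59.0 and 25.1. LF samples of batch 2 had 253, 159, 115 and 51.7 CPM, the HF samples 26.4, 33.2 and 21.7, and the HFLF samples 63.1, 112, 84.0, 19.1 and 23.6. No HF sample reached the lowest LF sample of its batch. HFLF samples again fell in both ranges, except replicate 4 of batch 2, which at 19.1 CPM lay below the HF range.

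Among the 14725 genes kept, every HF sample was below every LF sample for 7.23% in batch 1, 11.9% in batch 2 and 2.17% in both batches, each on its own. Of the 10 genes, 3 were of this kind in batch 1 (Hspa1a, Hspa1b and Dnajb1). Hspa1a and Hspa1b were so in batch 2 as well, which gives 2 of the 10 in batch 2 and 2 in both. Every HF sample was above every LF sample for 6.28% of these in batch 1, for 15% in batch 2 and for 2.43% in both. Here the 10 genes included 0 in batch 1, 2 in batch 2 (Hspa8 and Hspd1) and 0 in both.

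A gene was called when its p-value, adjusted over all genes tested in edgeR, was under 0.05 and its fold change above 1.2. The comparison of HF with LF asks how long feeding on the high-fat diet differed from the low-fat diet. In batch 1 edgeR called 0 of the 10 genes and 0% of 14428 genes tested. At an unadjusted p under 0.05 it had 4 of the 10, beside 22.2% of all genes, and DESeq2 called 2, beside 3.55% of all genes, and limma voom 4, beside 16.8%. In batch 2 edgeR called 2 of the 10, Hspa1a and Hspa1b, beside 7.44% of 14377 genes. DESeq2 called 3 there, beside 12.8%, and limma voom 4, beside 13.8%. In a fit of both batches with batch as a term it called 4 of the 10, beside 17.8% of 14725 genes. These were Hspa1a, Hspa1b and Dnajb1, lower in HF, and Hspe1, higher in HF. DESeq2 called 4, beside 18.9%, and limma voom 5, beside 16.2%. The median log2 fold change of the 10 genes in this fit was -0.12, beside -0.003 for all genes tested.

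For Hspa1a the log2 fold change, HF minus LF, was -2.70 ± 0.790 (SE) in batch 1 and -3.16 ± 0.734 in batch 2, with edgeR adjusted p of 0.160 and 0.0310. Over both batches it was -2.93 ± 0.578, a level 7.62-fold lower, with an adjusted p of 0.00408. Hspa1b had log2 fold changes of -2.14 in batch 1 and -2.44 in batch 2, with adjusted p of 0.160 and 0.0345. Over both batches its difference was -2.28 ± 0.464, 4.87-fold lower, with an adjusted p of 0.00452. All 6 HF samples lay below the LF samples of their batch for both genes. With the counts of the pair summed, the log2 fold change was -2.28 in batch 1, -2.63 in batch 2 and -2.45 over both, with adjusted p of 0.159, 0.0337 and 0.00441. In batch 2, the calls of Hspa1a and Hspa1b were lost when LF replicate 1, 2 or 3, or HF replicate 2 or 3 was left out, each time with 0 of the 10 genes called. Only Hspa1a was called there without HF replicate 1, and 4 genes without LF replicate 4. These counts have no share of all genes beside them.

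The share of the pair's counts assigned to Hspa1a also differed. Its mean in LF samples was 29.5% ± 3.56 (SD, n = 4) in batch 1 and 31.1% ± 2.95 (SD, n = 4) in batch 2. In HF samples it was 21.3% ± 1.93 (SD, n = 3) and 22.3% ± 4.63 (SD, n = 3). HFLF samples lay between, at 25.5% ± 5.81 (SD, n = 4) and 28.5% ± 4.42 (SD, n = 5). Permuting labels within batches, the two-sided exact p was 0.00245 for HF minus LF, a mean difference of -8.50 percentage points, 0.136 for HFLF minus LF, at -3.27 points, and 0.0464 for HFLF minus HF, at 5.23 points. Adjusted over these 3 comparisons, the values were 0.00735, 0.136 and 0.0696. Within batch 1 alone the exact p for HF minus LF was 0.0571, and within batch 2 it was 0.0857, where the smallest possible was 0.0286. How the handling of shared reads bears on this share was not tested.

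Both genes also varied more within groups than most genes. The SD of log2 CPM of Hspa1a was 1.60 among HFLF samples of batch 1, where 1 of 14725 genes had a larger SD. Among HFLF samples of batch 2 it was 1.37, with 9 genes larger, and among LF samples of batch 2 it was 1.14, with 10 larger. The median SD of all genes ran from 0.0974 to 0.186 over the 6 groups.

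Dnajb1, at chr8:83608175-83611903 on the plus strand, encodes the J-domain protein that hands clients to inducible HSP70. In batch 1 it had 154, 144, 113 and 151 CPM in LF samples, 94.8, 99.3 and 70.9 in HF samples, and 78.3, 144, 102 and 86.7 in HFLF samples. HF samples all lay below LF samples, and HFLF replicate 2 alone reached the LF range. In batch 2 the LF samples had 247, 226, 187 and 159 CPM, the HF samples 165, 137 and 115, and the HFLF samples 193, 218, 215, 147 and 129. There HF replicate 1 exceeded LF replicate 4, so the groups overlapped by that pair of samples. HF minus LF was -0.67 ± 0.194 (SE) on the log2 scale in batch 1, -0.58 ± 0.190 in batch 2 and -0.62 ± 0.145 over both batches, where its level was 1.53-fold lower. The edgeR adjusted p was 0.160, 0.0632 and 0.00676.

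Hspa8, at chr9:40801273-40805199 on the plus strand, holds small nucleolar RNA genes in its introns (Snord14c, Snord14d and Snord14e), which a total RNA library can include. In batch 2 it had 1126, 1339, 1226 and 1447 CPM in LF samples, 1510.4, 1826 and 1705 in HF samples, and 1108, 1481, 1678, 1142 and 1313 in HFLF samples. HF samples were above all LF samples there. Batch 1 LF samples ran from 1141 to 2044 CPM, which covered its HF samples, 1490.3 to 1650. The log2 fold change, HF minus LF, was 0.07 in batch 1, 0.37 in batch 2 and 0.23 over both batches, with edgeR adjusted p of 0.810, 0.0777 and 0.122. With 1 sample left out the batch 1 value ran from -0.04, without LF replicate 3, to 0.27, without LF replicate 4. Without LF replicate 4 of batch 1, at 2044 CPM, the value over both batches was 0.33 with an adjusted p of 0.0126.

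Hsph1, an HSP110 that releases ADP from HSP70, lies at chr5:149616845-149636315 on the minus strand. It ran from 26.1 to 140 CPM over all samples. Both extremes were in batch 1, in HF replicate 3 and LF replicate 4. HF minus LF was -0.73 in batch 1 and -0.13 in batch 2 on the log2 scale, with an edgeR adjusted p of 0.321 in batch 1. The batch 1 value was -0.40 without LF replicate 4 and also -0.40 without HF replicate 3, and with 1 sample left out the batch 2 value ran from -0.20 to -0.03. Groups overlapped in both batches.

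Hspb1, a small heat shock protein that holds unfolded proteins without ATP, lies at chr5:135887919-135889563 on the plus strand. It ran from 0.164 to 0.847 CPM. Its log2 fold change, HF minus LF, was -0.26 in batch 1 and 0.16 in batch 2. Over both batches it was -0.01 ± 0.334 (SE), and ran from -0.32 to 0.15 with 1 sample left out. A small difference was therefore not detectable at this depth.

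Hsp90aa1, at chr12:110691036-110696395 on the minus strand, ran from 159 to 341 CPM. Its log2 fold change, HF minus LF, was -0.16 in batch 1 and -0.10 in batch 2, and its groups overlapped in both. Over both batches it was -0.13 with an adjusted p of 0.440. With 1 sample left out the batch 1 value ran from -0.29, without LF replicate 3, to 0.02, without LF replicate 4, and the batch 2 value from -0.19 to -0.001.

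The mitochondrial chaperonin genes lie head to head on chromosome 1, with Hspd1 at chr1:55077834-55087932 on the minus strand and Hspe1, for the lid of the chamber, at chr1:55088148-55091317 on the plus strand. In batch 1 Hspe1 had 44.2, 35.2, 30.0 and 53.7 CPM in LF samples, 55.5, 47.2 and 59.1 in HF samples, and 44.7, 36.4, 52.8 and 42.6 in HFLF samples. In batch 2 the LF samples had 62.9, 61.3, 58.6 and 61.2 CPM, the HF samples 61.9, 75.0 and 75.5, and the HFLF samples 46.0, 68.3, 64.7, 49.2 and 57.4. Most HF samples were above LF samples, and the groups overlapped in both batches. The log2 fold change, HF minus LF, was 0.40 in batch 1 and 0.20 in batch 2, with edgeR adjusted p of 0.206 and 0.239. Over both batches it was 0.31 ± 0.110 (SE), 1.24-fold higher, with an adjusted p of 0.0406. The call was lost in 9 of 23 fits that each left out 1 sample, where the adjusted p reached 0.106. These were the fits without LF replicate 2 or 3, HFLF replicate 4 or HF replicate 1 or 3 of batch 1, or without LF replicate 1 or 3 or HF replicate 2 or 3 of batch 2.

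Hspd1 moved the same way by less. In batch 1 it had 206, 175, 161 and 235 CPM in LF samples, 242, 202 and 257 in HF samples, and 201, 181, 208 and 193 in HFLF samples. LF samples of batch 2 had 219, 212, 201 and 211 CPM, the HF samples 227, 262 and 241, and the HFLF samples 185, 222, 213, 182 and 202. Batch 2 HF samples were above every LF and every HFLF sample, and batch 1 groups overlapped. HF minus LF was 0.27 in batch 1 and 0.19 in batch 2 on the log2 scale, with edgeR adjusted p of 0.234 and 0.105. Over both batches it was 0.24 ± 0.0729 (SE), with an edgeR adjusted p of 0.0212. With 1 sample left out that adjusted p was under 0.05 in 19 of 23 fits and reached 0.0683. The fold change of Hspd1 over both batches, 1.18, was under the fold of 1.2 that a call required.

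The comparison of HFLF with LF asks whether mice switched to the low-fat diet differed from mice kept on it. It shares the LF samples with the comparison of HF with LF, and the comparison of HFLF with HF shares the HFLF and HF samples with both. In batch 1 edgeR called 0 of the 10 genes, beside 0% of genes tested, with 2 at an unadjusted p under 0.05, beside 5.29%. In batch 2 it called 0 of the 10, beside 0.00696%, with 2 at an unadjusted p under 0.05, beside 4.65%. Over both batches it called 0 of the 10, beside 0%, with 4 at an unadjusted p under 0.05, beside 4.07%. DESeq2 called 0 in all 3 of these, beside 0.0416%, 0.111% and 0.0407% of all genes, and limma voom 0, beside 0%, 0% and 0.0204%. In the fit of both batches 9 of the 10 genes had a negative fold change, and their median was -0.24, beside 0.007 for all genes. Hspa1a had a log2 fold change of -1.17 ± 0.460 (SE) and Hspa1b of -1.10 ± 0.386, both with an edgeR adjusted p of 0.981. Hsp90aa1 had -0.32 and Dnajb1 -0.31. Hspe1 and Hspd1 had 0.003 and -0.03.

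The comparison of HFLF with HF asks how mice switched to the low-fat diet differed from mice kept on the high-fat diet. No sample comes from the time of the switch. In batch 1 edgeR called 0 of the 10 genes, beside 0.00693% of genes tested, with 1 at an unadjusted p under 0.05, beside 10.9%. DESeq2 and limma voom called 0, beside 0.118% and 0.0208%. In batch 2 it called 0 of the 10, beside 14.5%, with 6 at an unadjusted p under 0.05, beside 38.2%. DESeq2 called 3, beside 17.1%, and limma voom 1, beside 15.7%. Over both batches edgeR called 2 of the 10, Hspa1a higher and Hspd1 lower in HFLF, beside 10.2% of genes. DESeq2 called 4, beside 12%, and limma voom 1, Hspe1, beside 10.4%. Limma voom called neither Hspa1a, at 1.17 with an adjusted p of 0.175, nor Hspd1, at -0.25, under the fold required. By edgeR Hspa1a had a log2 fold change of 1.76 ± 0.549 (SE), 3.38-fold higher, with an adjusted p of 0.0344. Within batches its values were 1.77 and 1.77, with adjusted p of 0.443 and 0.0790, and in batch 1 it was 0.89 without HFLF replicate 2. Hspa1b had 1.19 ± 0.440 with an adjusted p of 0.0627, and the summed pair 1.33 ± 0.465 with an adjusted p of 0.0515. Hspd1 had -0.27 ± 0.0710 with an adjusted p of 0.0187, and in batch 2 -0.26 with 0.0279, there just under the fold required. Dnajb1 was at 0.31, Hspe1 at -0.30 and Hspa8 at -0.26, with adjusted p of 0.122, 0.0536 and 0.0966. With a block for replicate number, the counts of called genes were 3 of the 10 in batch 2 and 5 over both batches. The share of all genes called with that block is not given, so these counts are not a result particular to these genes. Without that block, the calls over both batches depended on individual samples. Hspa1a was not called without HFLF replicate 2 or HF replicate 1 or 3 of batch 1, or without HFLF replicate 1 or 2 or HF replicate 2 or 3 of batch 2, where its adjusted p reached 0.0863. Hspd1 was not called without LF replicate 3, HFLF replicate 2 or HF replicate 1 or 3 of batch 1, or without HFLF replicate 1 or 4 or HF replicate 2 of batch 2, where its log2 fold change was between -0.26 and -0.23 and its adjusted p at most 0.0634.

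**Figure D2:**
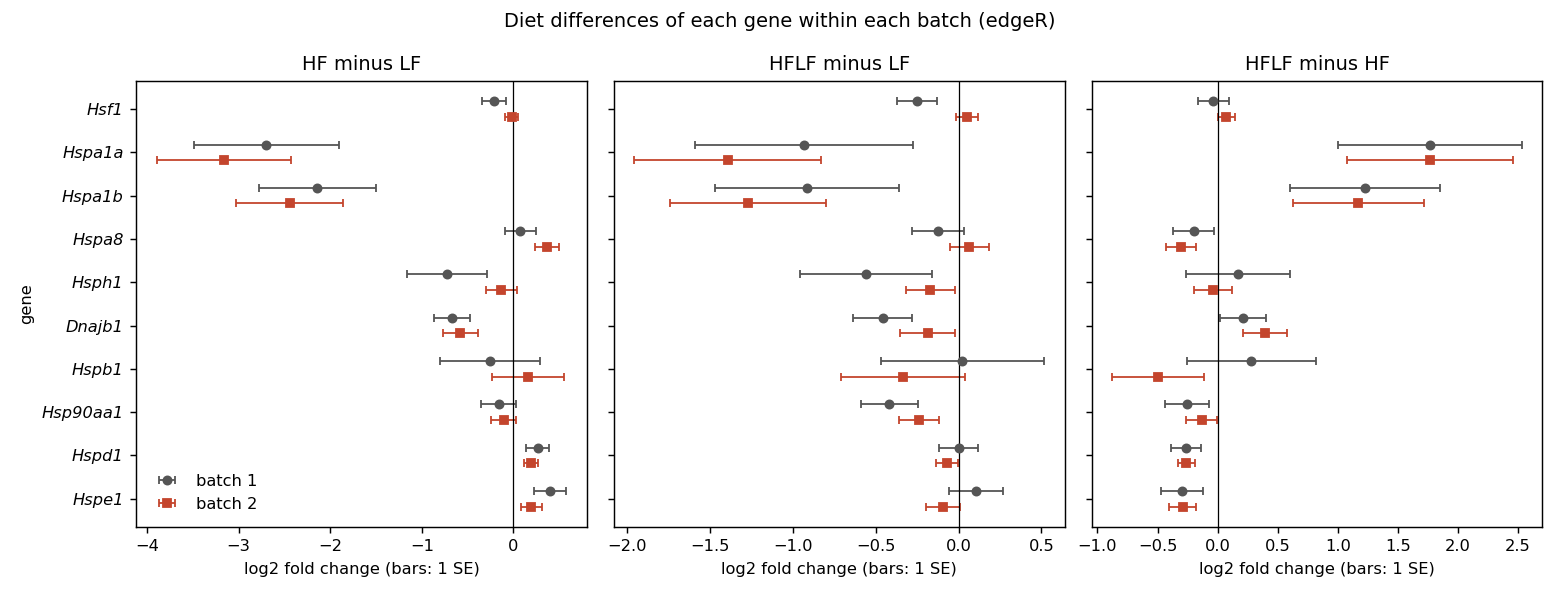
Log2 fold change of each gene in the 3 comparisons of diets, within batch 1 (circles) and batch 2 (squares), with bars of 1 SE from edgeR. Hspa1a and Hspa1b lie below 0 for HF minus LF, at -2.70 and -2.14 in batch 1 and -3.16 and -2.44 in batch 2.

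Whether a diet difference was unequal between batches was tested as an interaction. By edgeR it was called for 0 of the 10 genes in each of the 3 comparisons, beside 0% of all 14725 genes. At an unadjusted p under 0.05 there were 0 of the 10 for HF minus LF, beside 6.5% of all genes, 1 for HFLF minus LF, beside 7.63%, and 0 for HFLF minus HF, beside 7.69%. The 1 was Hsf1, with an adjusted p of 0.645. DESeq2 called 0 of the 10 in each, beside 0%, 0.0204% and 0% of all genes.

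In several groups 1 sample was the highest or the lowest for most of the genes. In batch 1, LF replicate 4 was the highest of its group for 8 of the 10 genes and LF replicate 3 the lowest for 8, and HFLF replicate 2 was the highest of its group for 8. HF replicate 3 of batch 1 was lowest of its group for 7. In batch 2, LF replicate 1 was the highest of its group for 9 of the 10 and HFLF replicate 4 the lowest for 7. HFLF replicate 2 of batch 2 was highest of its group for 6. HF replicate 1 of batch 2 was lowest of its group for 6 and highest for 3, and HF replicate 2 of batch 1 was highest for 6 and lowest for 3.

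To find genes with a like pattern, the batch-centred, scaled log2 CPM of the 10 genes were averaged, and each other gene was correlated with this mean over 23 samples. Among genes in none of the lists of other chaperones, immediate early genes and markers, those with the highest Pearson r were Ppan (0.869), Icam1 (0.842), Ccdc137 (0.792), Tfeb (0.779), Snora81 (0.764), Pusl1 (0.759), Spata5l1 (0.759), Slc52a2 (0.754), Ppp1r1b (0.741) and Jmjd6 (0.729). Of these, Spata5l1 was called for HF minus LF over both batches, at -0.41. Among the 10 chaperone and factor genes themselves, which enter the mean, r was highest for Hsp90aa1 at 0.936 and Hsph1 at 0.852 and lowest for Hspe1 at 0.270 and Hspd1 at 0.297. These r values are a description across samples that share diets.

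Other chaperone genes were counted for HF minus LF over both batches, in which 17.8% of all genes were called. Of 13 genes tested for the cytosolic chaperonin CCT, a ring that folds actin and tubulin, and its partner prefoldin, 8 were called higher and 0 lower, with a median log2 fold change of 0.34. They included Pfdn4 (0.45), Vbp1 (0.40), Tcp1 (0.39) and Cct6a (0.38). Of 17 chaperones of the endoplasmic reticulum, 9 were called higher and 0 lower, with a median of 0.30, among them Pdia6 (0.46), Manf (0.42), Sdf2l1 (0.40) and Calr (0.38). Of 11 other mitochondrial chaperones and proteases, 4 were called higher and 0 lower, with a median of 0.17, namely Dnajc19 (0.32), Grpel1 (0.30), Yme1l1 (0.29) and Hspa9 (0.27). DESeq2 called 8, 9 and 4 genes of these lists, beside 18.9% of all genes, and limma voom 8, 10 and 1, beside 16.2%. Within batch 2 edgeR called 2, 9 and 1, beside 7.44% of all genes. Within batch 1 it called 0 in each, beside 0%, with 8, 9 and 5 at an unadjusted p under 0.05, beside 22.2%. There DESeq2 called 0, 1 and 0, beside 3.55%, and limma voom 7, 10 and 3, beside 16.8%. In these 3 lists the median was also positive within each batch, at 0.38 and 0.25 for CCT and prefoldin, 0.29 and 0.28 for the endoplasmic reticulum, and 0.20 and 0.13 for mitochondria. For HFLF minus HF, 7 of the 13, 7 of the 17 and 3 of the 11 were called lower by edgeR, where 10.2% of all genes were called in either direction. DESeq2 called 7, 8 and 3, beside 12%, and limma voom 6, 6 and 1, beside 10.4%. The medians were -0.27, -0.23 and -0.19, beside 0.006 for all genes. Within batch 1 edgeR, DESeq2 and limma voom called 0 in each list, beside 0.00693%, 0.118% and 0.0208% of all genes. Within batch 2 edgeR called 3, 7 and 1, beside 14.5%.

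Of 6 other HSP70 and HSP110 genes tested, all had a positive fold change and 2 were called higher, Hspa13 (0.37), whose protein is found in the endoplasmic reticulum, and Hspa4 (0.29), with a median of 0.18. Of 15 other J-domain genes, Dnajc9 was called higher (0.50) and Dnaja1 lower (-0.46), with a median of 0.06. Of 16 genes for HSP90 beta and HSP90 co-chaperones, 3 were called higher, Fkbp5 (0.58), Cacybp (0.42) and Ptges3 (0.33), and 1 lower, Unc45a (-0.35), with a median of 0.08. Of 18 other genes known as HSF1 targets, some of them in the lists above, 3 were called higher (Cacybp, Tcp1 and Hspa4) and 2 lower (among them Dnaja1), with a median of 0.04. By edgeR 0 of 8 nucleotide exchange factors of HSP70, 0 of 4 other small heat shock proteins and 0 of 5 other heat shock factors and regulators of HSF1 were called, with 3, 0 and 2 at an unadjusted p under 0.05, beside 41.7% of all genes, and medians of 0.11, 0.02 and -0.22. DESeq2 called 0 in these lists, and limma voom called 1, 0 and 2. Within batch 2 edgeR called 1, 0 and 1, all higher, among them Hsbp1 (0.28), beside 7.44% of all genes. Within batch 1 it called 0 in each, with 1, 0 and 1 at an unadjusted p under 0.05, beside 22.2%. Their medians were 0.14, -0.05 and -0.11 in batch 1 and -0.008, -0.07 and 0.08 in batch 2, so that those of the exchange factors and of the regulators changed sign between batches. Among the lists before them the medians in batches 1 and 2 were 0.17 and 0.26 for HSP70 and HSP110, 0.008 and 0.08 for J-domain genes, -0.04 and 0.18 for HSP90 and its co-chaperones, and -0.04 and 0.11 for HSF1 targets. Over both batches the most abundant exchange factor, small heat shock protein and regulator were Bag6 (-0.26), Hspb11 (0.07) and Hsbp1 (0.26).

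Immediate early genes, which respond within minutes to growth signals or stress, were also lower in HF samples. The median log2 fold change of the 22 genes on the list was -0.67, HF minus LF over both batches. Of these, 20 were called lower and 0 higher, beside 17.8% of all genes called. They included Nr4a3 (-1.44), Klf2 (-1.38), Nr4a1 (-1.19) and Egr3 (-1.17). Within batches 1 and 2 the medians were -0.79 and -0.52, with 0 and 14 called by edgeR, beside 0% and 7.44% of all genes. DESeq2 called 20 and 17, beside 3.55% and 12.8%, and limma voom 20 and 18, beside 16.8% and 13.8%. Their summed level, with Fos the most abundant, was 8351, 9094, 8935 and 8015 CPM in LF samples of batch 1, 5429, 6224 and 4124 in HF samples, and 5935, 7848, 6471 and 6035 in HFLF samples. In batch 2 it was 9217, 9710.1, 8250.1 and 8802 CPM in LF samples, 7695, 6419.9 and 5827 in HF samples, and 9336, 8686, 9027, 9328 and 7860.3 in HFLF samples. HF samples lay below all LF samples in both batches, while HFLF samples of batch 2 were all above the HF samples. For HFLF minus HF over both batches 14 of the 22 were called higher, beside 10.2% of all genes called, with a median of 0.42. Within batches the medians were 0.34 and 0.46, with 0 and 16 called, beside 0.00693% and 14.5% of all genes. For HFLF minus LF 0 were called by edgeR, with 8 at an unadjusted p under 0.05, beside 4.07% of all genes, and 2 called by each of DESeq2 and limma voom, and the median was -0.21. In batch 1 that median was -0.46 with 14 at an unadjusted p under 0.05, beside 5.29% of all genes, and in batch 2 it was -0.02 with 2, beside 4.65%, while edgeR called 0 in both. The part of what moved these genes in the differences of Hspa1a, Hspa1b and Dnajb1 was not tested.

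Smooth muscle markers, led by Myh11, summed to 1.18, 3.51, 9.44 and 11.5 CPM in LF samples of batch 1, 10.3, 9.70 and 0.545 in HF samples, and 24.9, 50.9, 2.57 and 19.8 in HFLF samples. In batch 2 the sums were 19.9, 7.33, 30.8 and 5.97 CPM in LF samples, 4.69, 0.858 and 3.35 in HF samples, and 15.4, 1.82, 2.12, 11.2 and 6.00 in HFLF samples. HF samples were below LF samples in batch 2, and the groups overlapped in batch 1. The median log2 fold change of these markers, HF minus LF, was -2.31 in batch 2 and 0.16 in batch 1. In batch 2 edgeR called 1 of the 7, with 6 at an unadjusted p under 0.05, beside 33.1% of all genes, DESeq2 called 1 and limma voom 3. Over both batches edgeR called 0 of the 7 smooth muscle markers, 1 of 6 fibroblast markers (Pdgfra, -1.19) and 1 of 4 endothelial markers tested (Vwf, -0.48), both lower, with medians of -1.26, -0.67 and -0.41. Of the smooth muscle markers 1 had an unadjusted p under 0.05, and DESeq2 and limma voom called 0. For HFLF minus HF over both batches all 7 smooth muscle markers were positive, with a median of 1.58, and 1.90 and 0.90 within batches 1 and 2. EdgeR called 0 of the 7 there over both batches, beside 10.2% of all genes, with 3 at an unadjusted p under 0.05. DESeq2 called 1 and limma voom 0. Fibroblast and endothelial markers had medians of 0.77 and 0.36 in that comparison, with 1 endothelial marker called. For HFLF minus LF the smooth muscle medians were 2.01 in batch 1, -1.12 in batch 2 and 0.15 over both batches. The part of these cells in the differences between diets was not tested. Without the 4 samples with the highest sums, HFLF replicates 1 and 2 of batch 1 and LF replicates 1 and 3 of batch 2, Hspa1a, Hspa1b and Dnajb1 were still called for HF minus LF over both batches, at -2.67, -2.09 and -0.61, and Hspe1, at 0.33, was not. In batch 2, where only LF replicates 2 and 4 were then left in the LF group, edgeR called 0 of the 10, with 2 at an unadjusted p under 0.05. The log2 fold changes of Hspa1a and Hspa1b there were -2.58 and -1.98. Shares of all genes are not given for this smaller fit, so a loss of calls particular to these genes cannot be told from a general one.

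The markers of epithelial and immune cells were counted for the same comparison over both batches. By edgeR 0 of 11 epithelial markers were called, with a median of 0.05 and Krt8 at 0.07, while 2 had an unadjusted p under 0.05, DESeq2 called 1 and limma voom 0. Of 7 goblet cell markers, Agr2 (0.59) and Tff3 (0.43) were called higher, and of 6 enteroendocrine and tuft cell markers, Pyy (0.45), with medians of -0.09 and -0.02. Of 4 stem and crypt base markers, Smoc2 (0.29) was called higher and Axin2 (-0.43) lower, with a median of 0.01. Goblet cell medians were -0.06 in batch 1 and 0.22 in batch 2, and those of the stem and crypt base markers -0.14 and 0.12. Of 5 myeloid markers tested, Cd14 (0.36) was called higher, with a median of -0.32. By edgeR 0 of 6 T cell and leukocyte markers and 0 of 2 B cell markers tested were called, nor by DESeq2 or limma voom, with 0 at an unadjusted p under 0.05 and medians of -0.09 and -0.02. Their most abundant genes, Ptprc and Cd79b, stood at 0.01 and -0.25.

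Promoters are shown because Hspa1a and Hspa1b moved together in the samples. RefSeq promoters of build GRCm38.p6, each from 250 bases before a gene's start to 50 after it, had entries for 7 of the 10 genes in 10 windows. Hsf1, Hspa8 and Hsp90aa1 had no entry. HSF1 binds units of the letters GAA in alternating direction, so the 250 bases before each start were searched for GAANNTTC and TTCNNGAA. Each reads the same on both strands, and they can overlap each other. GAANNTTC was in 6.69% of all 32851 windows, TTCNNGAA in 7.17%, and either in 12.8%. Of the 10 windows of these genes, 7 held either motif, where the windows of Hspd1 and Hspe1 that did share the stretch and the 2 windows of Hsph1 share the motif. By gene, 6 of the 7 had either motif in any window, beside 14.5% of 27025 genes, and Dnajb1 had none in these windows. Either motif extended by a further unit was in 0.466% of all windows and in 2 of the 10, those of Hspd1 and Hspe1, which share it. A match is a description of letters, not a site or a cause.

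The 250 bases before the starts of Hspa1a and Hspa1b were 98.8% identical, with 3 bases different. Each held GAAGATTC 104 bases before the start. The stretches around it, from 150 to 51 bases before the start, are on the minus strand at chr17:34972207-34972306 for Hspa1a and chr17:34959289-34959388 for Hspa1b, with the motif in capitals.
Hspa1a: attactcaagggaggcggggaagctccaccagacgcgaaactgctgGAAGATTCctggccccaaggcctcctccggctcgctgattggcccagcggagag
Hspa1b: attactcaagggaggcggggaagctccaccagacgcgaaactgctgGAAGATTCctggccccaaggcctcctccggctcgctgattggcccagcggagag

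Hspe1 is shown beside them since it moved the other way and its promoter, shared with Hspd1, held 3 overlapping motifs. The stretch is on the plus strand at chr1:55088053-55088082, with the run of motifs in capitals, and lies between Hspd1 and Hspe1 by the positions of the deposited table, while GENCODE has an Hspd1 exon on the other strand that overlaps it.
Hspe1: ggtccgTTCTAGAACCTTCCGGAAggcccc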

How the data were processed

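The authors trimmed reads with cutadapt 1.2.1, aligned them to mm10 (STAR 2.5) and counted them per gene (featureCounts 1.5.0-p1). The deposited values are raw counts, and their annotation release, multi-mapping and strand settings are not stated in the methods section. Counts of all genes were fitted in edgeR 4.0.16 (filterByExpr, TMM factors, quasi-likelihood F test), with the 3 diets in one fit per batch, in one fit of all 23 samples with batch as a term, and in one with each diet and batch as a group. P-values were adjusted by Benjamini-Hochberg over all genes tested. Log2 CPM used a pseudocount of 0.5. DESeq2 1.42.0 and limma 3.58.1 (voom with sample weights) were alternatives. All 3 tools were tried on simulated data for HF minus LF, in the designs of batch 2 and of both batches, without a simulated batch effect. The other comparisons, the replicate block, RLE scaling and the fit with each diet and batch as a group were not simulated. Gene positions are those of the deposited table, and exon lengths and overlapping genes came from GENCODE vM21, whose gene bounds can differ. The genes and lists were chosen with earlier results of these data known. From each list, up to 4 called genes with the largest HF minus LF change over both batches were named, or its most abundant gene where none was called. All samples were used.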

Additional observations from a re-analysis of the deposited data

Results flagged for a closer look

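Among HFLF samples of batch 1, Hsph1 in replicate 2 stood at 109 CPM, far from the other samples of its group, which lay between 38.5 and 45.7 CPM. Among LF samples of batch 1, Hspb1 in replicate 4 stood at 0.620 CPM, with the others between 0.337 and 0.354 CPM. These 2 were the only ones found among 40 groups of 4 or 5 samples tested over the 10 genes, where chance gives about 1 in 20 groups. Without HFLF replicate 2, the log2 fold change of Hsph1, HFLF minus HF, in batch 1 was -0.32 in place of 0.17, and Hsph1 was not called by edgeR in either case.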

How the results depend on the processing

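Of 2202 fold changes of the 10 genes under alternative settings, 2083 kept their side of the threshold, with their direction kept or a change of sign smaller than 1 SE. No called difference reversed. Most of the 2202 belong to differences not called in the main fits. A called difference lost its call in 50 values. For HF minus LF over both batches this was 12 of 33 for Hspe1, 2 of 33 for Dnajb1 and 1 of 32 each for Hspa1a and Hspa1b. In batch 2 it was 6 of 20 for Hspa1a and 7 of 20 for Hspa1b. For HFLF minus HF over both batches it was 11 of 33 for Hspd1 and 10 of 32 for Hspa1a. Of 224 counts of called genes under alternatives, 183 stayed within 1.5 times the reported count. Except for DESeq2, limma voom and each batch alone, the shares of all genes called are not given. A changed count there cannot be told from a general change in calls. For HF minus LF in batch 1 the count of 0 by edgeR became 2 by DESeq2 and 4 by limma voom. In batch 2 the count of 2 became 4 by limma voom, 4 with only the 2 groups compared in the fit, 1 with the pair summed, which joins 2 called genes in 1, and 0 without the 4 samples highest in smooth muscle markers, chosen after seeing the data, which leaves fewer samples. Over both batches the count of 4 was 0 in batch 1 alone and 2 in batch 2 alone, each with fewer samples.

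For HFLF minus HF in batch 2 the count of 0 became 1 with RLE scaling, 1 with no filter on low counts, 3 by DESeq2, 1 by limma voom and 1 by adjusted p alone. Over both batches the count of 2 became 4 by DESeq2, and, in alternatives chosen after seeing the data, 1 by limma voom, 1 with the pair summed and 1 without the samples highest in smooth muscle markers. It was 0 in batch 1 alone and 0 in batch 2 alone. Except where stated, the cause was not tested.

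Leaving out 1 sample at a time gave 0 to 4 called genes for HF minus LF in batch 2. The count was 0 without LF replicate 1, 2 or 3 or HF replicate 2 or 3, 1 without HF replicate 1 and 4 without LF replicate 4. Over both batches, where this was chosen after seeing the data, it gave 3 to 6. Hspa1a, Hspa1b and Dnajb1 had an adjusted p under 0.05 in all 23 of these fits, with adjusted p of 0.00185 to 0.0132, 0.00201 to 0.0142 and 0.00320 to 0.0231. Hspe1 did in 14 of 23 and reached 0.106 without HF replicate 3 of batch 1; the other samples whose loss took its call were LF replicates 2 and 3, HFLF replicate 4 and HF replicate 1 of batch 1, and LF replicates 1 and 3 and HF replicates 2 and 3 of batch 2. For HFLF minus HF in batch 2 the range was 0 to 3, with 3 without HFLF replicate 3 and 2 without HFLF replicate 2 or 5 or HF replicate 1. Over both batches it was 0 to 4, with 4 without HFLF replicate 1 or HF replicate 2 of batch 1, 1 without HFLF replicate 4 or HF replicate 3 of batch 2, and 0 without HFLF replicate 2 or HF replicate 1 or 3 of batch 1 or HFLF replicate 1 or HF replicate 2 of batch 2. For HFLF minus LF, and for both comparisons with HF in batch 1, it stayed at 0. Since shares of all genes called are not given for these fits, the swings in count are not a result particular to these genes.

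Replicate numbers were not taken to pair samples across diets. Of 20 pairs of samples with the same number, 12 had a correlation over 0.1 of their deviations from the group means, from -0.596 to 0.584, and 8 of 23 samples were best correlated with their own number. With a replicate block the count for HFLF minus HF was 3 in batch 2 and 5 over both batches, without the share of all genes beside it.

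Groups held 3 to 5 samples, and Hspb1 had at most 37 counts in a sample, so small differences in it were beyond the depth. RLE scaling moved the median of all genes by at most 0.01 on the log2 scale.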
